A study of Drosophila melanogaster with 6 samples.

Results

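Genes known only by a CG number that stood higher in spo mutant embryos than in wild type form the subject of these results. A CG number is an identifier that genome annotation gave to a fly gene, and it serves as the symbol where no other name is in use. Genes were taken from the deposited TPM table (a measure of transcript abundance in which gene length and the total of the library are divided out). A gene entered if its symbol was CG and a number, its mean over the 3 spo libraries was at least 5 TPM and at least 2 times its wild-type mean, and every spo value lay above every wild-type value. CG17018 was excluded by name. The rule took 121 of the 6904 CG-numbered features among 15135 in all. The genes were thus selected on their wild-type and spo levels, and every difference between the genotypes given for them is a description and was not tested. The label of uncharacterized genes held in part: 97 of the 121 still carry only a CG number in the Ensembl annotation, and 24 now have a name. All 121 are annotated as protein coding.

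Polyadenylated RNA of whole fly embryos (Drosophila melanogaster) of about stage 14, late in embryogenesis, was sequenced in 3 wild-type and 3 spo mutant libraries, to learn which genes depend on ecdysone signalling. The sources used here do not give the spo allele, the wild-type strain, how mutant embryos were picked or how many went into a library. The design text calls the libraries independent without saying that they came from separate collections, and p-values cover only the spread between them. Spo replicate 2 was the highest of the 3 mutants for 45% of tested features, against 27.6% and 27.4% for replicates 1 and 3. It was the lowest for 36.2%, against 28.4% and 35.5%, and values without it are given below. The libraries held 46252274 to 67889707 reads in features whose reads could be rebuilt, and 1 read in a gene of 1 kb was worth 0.0315 to 0.0460 TPM. The spo transcript itself stood at 0.944, 0.726 and 0.696 TPM in wild-type replicates 1, 2 and 3 and at 0.610, 0.470 and 0.306 TPM in the mutants, below the filter for testing, and the groups did not overlap. Across all tested features, the libraries correlated at 0.995 to 0.998 within a genotype and at 0.970 to 0.975 between genotypes (Pearson's r of log2(TPM + 1) across genes, which are not independent replicates).

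Ecdysone is made from dietary sterols by a chain of cytochrome P450 enzymes, of which the spo product (spook) is one, and acts through a nuclear receptor that switches on cascades of further transcription factors. In the embryo a pulse of the hormone precedes the late steps of morphogenesis, cuticle deposition and organ maturation. Before that, the egg runs on RNA loaded by the mother, which is destroyed as the embryo's own genome takes over. In whole embryos, a change in the number of cells that express a gene and a change in the RNA per cell cannot be told apart.

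The 121 genes were of low abundance beside other expressed genes, and most stood 2 to 3 times higher in the mutants. Their wild-type means ran from 0.311 to 41.4 TPM with a median of 4.68 TPM, and their spo means from 5.10 to 89.0 TPM with a median of 15.3 TPM. The 7734 protein-coding genes with a mean of at least 5 TPM in either genotype had medians of 44.0 and 44.8 TPM. The ratio of means, spo over wild type, was 2 to 3 for 68 genes, 3 to 5 for 30, 5 to 10 for 16 and 10 or more for 7, with a median of 2.87. The rule took 1.75% of CG-numbered features. Without the demand on the symbol, the same thresholds took 1.59% of all features, and 119 of the 8230 features with another kind of name (1.45%). The mirrored rule, CG genes with a wild-type mean of at least 5 TPM and at least 2 times the spo mean, took 114 genes, or 1.65%, and without the symbol 1.5% of all features. These 114 genes had medians of 15.9 TPM in wild type and 4.89 TPM in spo, so low abundance was not particular to the 121. Of all tested features, 37.6% had every spo library above every wild-type library and 30.8% had every one below. The demand that the groups not overlap removed no CG gene that passed on level and ratio.

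**Figure D1:**
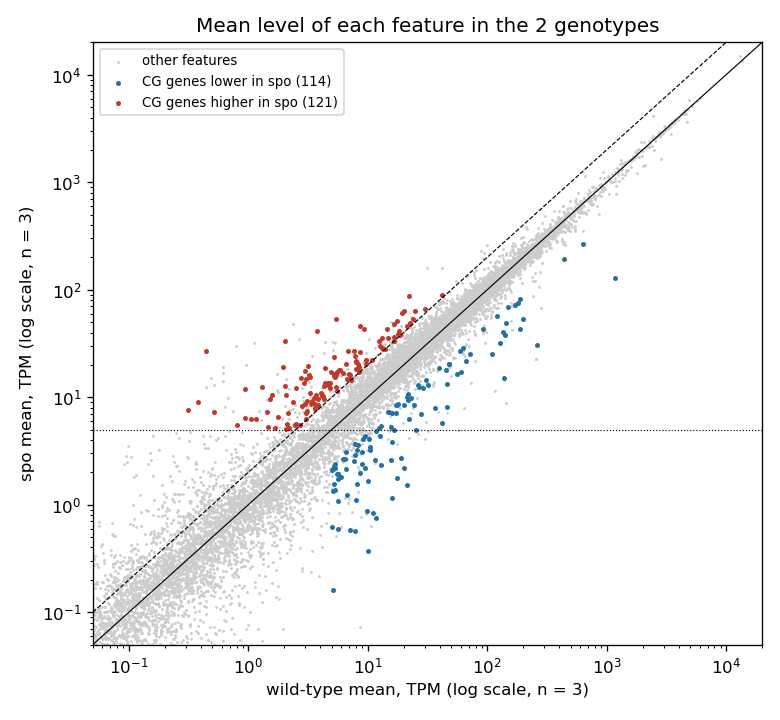
Mean TPM of each feature in wild type (x) and spo (y), n = 3 each, both axes on a log scale. The solid line marks equal means, the dashed line a ratio of 2 and the dotted line 5 TPM in spo. The 121 genes lie above both thresholds by construction, from 0.311 to 41.4 TPM in wild type.

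Close to silent in wild type, with a mean below 1 TPM, were 7 of the 121 genes, and their ratios ran from 6.86 to 60.8. CG5568 had the highest ratio of all, with wild-type replicates 1, 2 and 3 at 0.271, 0.506 and 0.544 TPM and spo replicates 1, 2 and 3 at 24.3, 30.4 and 25.5 TPM. Behind the wild-type values were 13, 23 and 33 reads, and behind the mutant values 1009, 1539 and 1538 reads. Its mean was 60.8 times higher in spo, and the authors' deposited table gives it a log2 fold change of 5.88. The gene lies at 5871501 to 5873518 of 3L (dm6, here and below) on the plus strand. Its span overlaps CG18586, which stood at 0.0389, 0.308 and 0.108 TPM in wild type and 2.56, 3.65 and 2.88 TPM in spo, so that reads of the pair may not be told apart. CG44005, at 18070300 to 18072123 of 3L, went from 0.283, 0.359 and 0.291 TPM to 7.04, 8.61 and 7.30 TPM, a ratio of 24.6. CG4404, at 12903745 to 12906018 of X, stood at 0.305, 0.471 and 0.371 TPM in wild type and 8.96, 10.7 and 7.64 TPM in spo, a ratio of 23.8. Spo replicate 2 was the highest library of each of these 3 genes. CG7730, at 17027515 to 17029814 of 3L, had 0.487, 0.574 and 0.475 TPM in wild type and 6.55, 8.60 and 6.75 TPM in spo, again highest in spo replicate 2, and overlaps Ilp8, an insulin-like peptide gene. Ilp8 averaged 0.199 ± 0.166 TPM in the wild-type libraries and 0.795 ± 0.154 TPM in the mutants (SD, n = 3), under the filter for testing.

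CG12721, now named moon (moonshiner), is also in this group. In ovaries its product helps to start transcription of the heterochromatic clusters that give rise to piRNAs, the small RNAs that silence transposons in the germ line. It stood at 0.785, 1.09 and 0.932 TPM in wild-type replicates 1, 2 and 3 and at 10.4, 14.0 and 11.3 TPM in spo replicates 1, 2 and 3, a ratio of 12.7. The gene has 1 exon, lies at 12072008 to 12072818 of X and overlaps the span of Ten-a, a teneurin gene of synapse partner matching. Ten-a averaged 48.5 ± 0.718 TPM over the wild-type libraries and 50.2 ± 0.348 TPM over the mutants (SD, n = 3), with a log2 difference of 0.05 (limma adjusted p = 0.128). CG11263 went from 0.710, 0.828 and 0.857 TPM to 4.41, 7.58 and 4.61 TPM, where spo replicate 2 stood well above the other mutants. CG13033 stood at 1.35, 0.761 and 0.723 TPM and 6.06, 6.20 and 7.16 TPM, and was the only gene of the 7 whose highest spo value was not in replicate 2.

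Genes with a clear wild-type level made up the rest of the 12 steepest, ranked by the ratio of mean (TPM + 1), and 2 of them encode very short proteins. CG13067, with a protein of 79 residues, stood at 2.05, 2.01 and 2.07 TPM in wild-type replicates 1, 2 and 3 and at 34.5, 28.4 and 38.1 TPM in spo replicates 1, 2 and 3, a ratio of 16.5. CG15353, with 53 residues, went from 3.64, 3.24 and 4.50 TPM to 46.7, 34.7 and 43.5 TPM, a ratio of 11.0. In CG13067 and CG15353, spo replicate 2 was the lowest mutant library and still above all wild-type libraries. CG3457 on the X chromosome, with 1 exon, stood at 1.70, 2.22 and 1.89 TPM and 16.7, 22.5 and 18.2 TPM, and CG15098 at 5.51, 6.17 and 4.69 TPM and 49.4, 62.4 and 49.4 TPM. CG7384 went from 1.29, 1.39 and 1.20 TPM to 12.3, 14.1 and 11.3 TPM. These 3 were highest in spo replicate 2, with ratios of 9.90, 9.84 and 9.71. CG4757 stood at 3.04, 3.36 and 3.15 TPM in wild type and 21.6, 16.2 and 21.0 TPM in spo, and CG10445 at 8.87, 8.60 and 8.25 TPM and 47.8, 41.0 and 48.8 TPM, both lowest among the mutants in replicate 2.

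At the top of the level scale, 12 genes had spo means from 45.9 to 89.0 TPM. CG9119 was the most abundant, at 38.3, 40.2 and 45.8 TPM in wild type and 90.3, 83.7 and 93.2 TPM in spo, a ratio of 2.15. It overlaps mwh, a planar polarity gene that limits where wing hairs and denticles form, and mwh was lower in spo, going from 44.9 ± 0.621 to 27.4 ± 2.34 TPM (SD, n = 3, log2 difference -0.70, limma adjusted p = 6.13e-05). CG18765 stood at 21.5, 21.7 and 23.01 TPM and 93.9, 71.7 and 96.7 TPM, a ratio of 3.96. CG13465, with 78 residues, stood at 28.6, 30.5 and 30.7 TPM and 74.2, 55.7 and 67.1 TPM, and spo replicate 2 was the lowest mutant library in each of these 3 genes. CG8173 stood at 25.2, 26.03 and 24.0 TPM and 63.5, 69.0 and 59.3 TPM, and CG9231 at 21.5, 19.3 and 20.04 TPM and 60.7, 69.8 and 57.7 TPM, both highest in spo replicate 2. CG13023 averaged 19.5 ± 0.535 TPM over the wild-type libraries and 60.1 ± 5.001 TPM over the mutants (SD, n = 3). CG4570 and CG7878 were the steadiest of this group, at 54.0, 54.8 and 53.2 TPM and 48.3, 48.6 and 48.9 TPM in spo replicates 1, 2 and 3, against 23.3, 25.1 and 23.7 TPM and 22.6, 22.4 and 22.2 TPM in wild type. The others, CG15098, CG10445, CG7433 and CG11897, are described with their ratios or names.

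**Figure D2:**
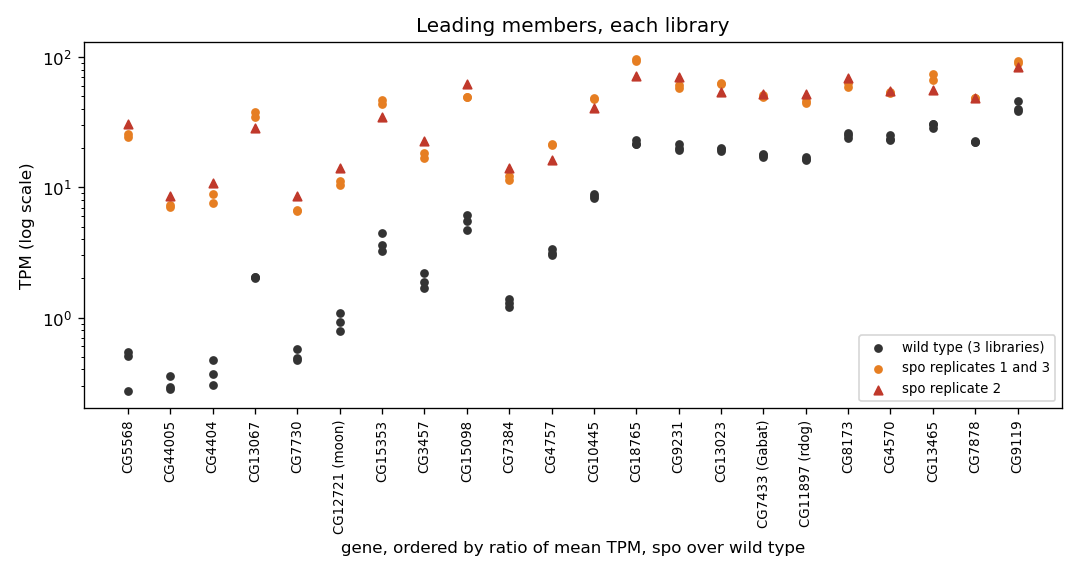
TPM (log scale) of 22 genes with the highest ratios or the highest spo means in each of the 6 libraries, ordered by ratio from left to right. Black points are the 3 wild-type libraries, orange points spo replicates 1 and 3 and red triangles spo replicate 2, which is the top or the bottom mutant library for most genes.

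The 24 genes that have since been named cover metabolism, mitochondria, protein turnover, RNA export and defence. Among genes of small-molecule metabolism, CG7433 (Gabat, the GABA transaminase) averaged 17.7 ± 0.432 TPM over the wild-type libraries and 51.1 ± 1.23 TPM over the mutants (SD, n = 3), and pairs of means below are in the same order. CG6045 (AOX3, an aldehyde oxidase) stood at 2.43, 2.98 and 2.93 TPM and 12.5, 20.2 and 12.4 TPM, with spo replicate 2 far above the other mutants. CG2781 (Elovl7, a very long chain fatty acid elongase) averaged 8.62 ± 0.0986 and 26.1 ± 1.96 TPM. Lipid handling was also represented by CG11407 (Acsx3, of the acyl-CoA synthetase family), at 7.78 ± 0.643 and 24.2 ± 2.39 TPM. CG10170 (Ugt303B3, a UDP-glycosyltransferase, a family that conjugates lipophilic compounds) averaged 8.32 ± 0.425 and 20.4 ± 2.27 TPM, and CG3940 (CAH7, a carbonic anhydrase) 12.7 ± 0.105 and 29.8 ± 2.22 TPM. Elovl7, Acsx3, Ugt303B3 and CAH7 were lowest among the mutants in replicate 2, while Gabat and AOX3 were highest there.

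Mitochondrial members included CG18769 (MCU, the pore of the calcium uniporter), at 13.9 ± 0.643 TPM over the wild-type libraries and 28.0 ± 0.808 TPM over the mutants (SD, n = 3). CG14997 (Sqor, the sulfide oxidizing enzyme of the inner membrane) averaged 3.57 ± 0.282 and 9.84 ± 0.671 TPM. CG14898 (Sdhaf3, an assembly factor of succinate dehydrogenase) averaged 3.34 ± 0.656 and 8.63 ± 0.813 TPM, and CG11077 (Mpv17, of an inner membrane protein family) 7.04 ± 0.229 and 16.0 ± 0.506 TPM. CG11077 was the only one of the 121 on chromosome 4. Their ratios, 2.02, 2.76, 2.59 and 2.27, lay below the median of the 121.

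Members with roles in nucleic acids, proteins and signals came next. CG9272 (Nthl1, a DNA glycosylase of base excision repair) averaged 5.40 ± 0.290 TPM over the wild-type libraries and 16.0 ± 1.23 TPM over the mutants (SD, n = 3). CG14749 (Gle1, a factor of messenger RNA export) averaged 16.6 ± 0.738 and 33.5 ± 2.13 TPM, and CG34261 (Targ3) 5.22 ± 0.196 and 15.8 ± 1.24 TPM. CG1667 (Sting, the sensor of cyclic dinucleotides in antiviral defence) stood at 6.39, 6.64 and 6.73 TPM and 19.0, 23.4 and 19.0 TPM, highest in spo replicate 2, and overlaps Orc6, a replication origin subunit whose log2 difference was 0.08 (limma adjusted p = 0.189). Ubiquitin transfer was represented by CG11261 (Cul6, a cullin) at 3.06 ± 0.104 and 6.29 ± 0.828 TPM and CG11984 (Kcmf1, an E3 ligase) at 16.4 ± 0.817 and 36.6 ± 3.67 TPM. CG8317 (Lst, limostatin, a peptide hormone that in adults restrains insulin release) averaged 4.31 ± 0.199 and 9.52 ± 1.15 TPM. CG8177 (Ae2, an anion exchanger) averaged 8.02 ± 0.446 and 21.8 ± 1.80 TPM, and CG3876 (PGAP2, a factor of GPI anchor maturation) 3.86 ± 0.232 and 9.72 ± 1.09 TPM. CG11897 (rdog) stood at 16.6, 17.0 and 16.2 TPM and 44.8, 51.8 and 45.9 TPM, a ratio of 2.87. The remaining named genes, thw (CG14608), Pdrg1 (CG15863) and Ttc1 (CG14894), had ratios of 3.48, 2.86 and 2.02. Of the 24 named genes, 17 were highest among the mutants in replicate 2 and 7 were lowest there. The shares highest and lowest there were 52.1% and 38.8% for all 121 genes, and 45.0% and 36.2% for all tested features.

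The 3 mutant libraries did not agree on these genes as closely as the wild-type libraries did, and spo replicate 2 lay furthest from the others. The median SD was 6.15% of the mean in wild type and 10.03% in spo, against 2.38% and 3.41% for the 7734 protein-coding genes with a mean of at least 5 TPM in either genotype. Those genes were far more abundant, with a median wild-type mean of 44.0 TPM against 4.68 TPM. For the 114 CG genes lower in spo the median SD was 3.28% of the mean in wild type and 18.2% in spo. Of the 121 genes, 63 were highest in spo replicate 2 among the mutants, 47 were lowest there and 11 lay between the other mutants. Replicate 1 was highest for 32 and lowest for 45, and replicate 3 highest for 26 and lowest for 29. Over all tested features, 45% were highest and 36.2% lowest in spo replicate 2. The share lowest in replicate 3 was nearly as large, at 35.5%. The gap between spo replicate 2 and the mean of replicates 1 and 3 on the log2(TPM + 1) scale ran from -0.50 to 0.66, with a median size of 0.22, while replicates 1 and 3 differed from each other by a median of 0.05. Over all tested features the same medians were 0.08 and 0.04. The 119 other features that passed the same thresholds had nearly the same split as the 121, with 61 highest, 13 between and 45 lowest in spo replicate 2 and a median gap size of 0.19.

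**Figure D3:**
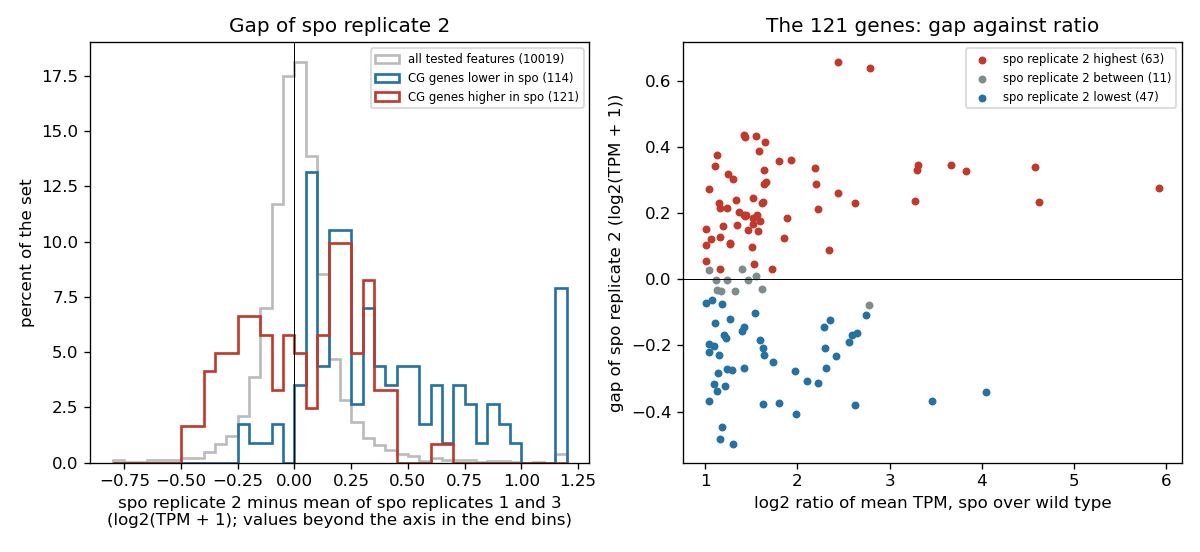
Left, the gap of spo replicate 2 from the mean of spo replicates 1 and 3 on the log2(TPM + 1) scale, as percent of each set, for all tested features, the 114 CG genes lower in spo and the 121 higher in spo. Right, the gap of each of the 121 genes against its log2 ratio of mean TPM, coloured by whether spo replicate 2 was the highest (63), between (11) or the lowest (47) mutant library.

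The widest gaps upward were those of AOX3, at 0.66, and CG11263, at 0.64. Downward they were those of CG11413, at -0.50, CG33514, at -0.48, and CG33339, at -0.45. CG11413 had 6.65, 3.76 and 4.90 TPM in spo replicates 1, 2 and 3, on 87, 60 and 93 reads, and 1.85, 2.58 and 1.78 TPM in wild type. CG33514 stood at 9.49, 6.11 and 8.41 TPM and 3.31, 3.92 and 3.53 TPM. Since every spo value lies above every wild-type value, the 47 genes lowest in spo replicate 2 were nearest to wild type in that library, and the 63 highest there were furthest from it. Among the 7 genes near silence in wild type, 6 were highest in replicate 2 and 0 lowest. Leaving out spo replicate 2 changed the ratios by factors from 0.815 to 1.13, and 6 of the 121 then fell below a ratio of 2. Among the 114 CG genes lower in spo, 102 were highest in spo replicate 2, that is nearer to wild type, and 4 were lowest there.

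Named genes known as egg transcripts were mostly higher in spo, and mostly highest in replicate 2. A list of 55 such genes was drawn up with earlier results of these data known. Its counts therefore describe the list and are no independent evidence. Of 47 tested, 35 were higher and 4 lower in spo (limma on log2(TPM + 1), adjusted p below 0.05). Among all 10019 features tested, 33.9% were higher, 27.9% lower and 61.7% called in either direction. Without spo replicate 2, in a fit whose filter asked for 1 TPM in fewer libraries, the counts were 34 and 5. Of the 47, 32 were highest in spo replicate 2 among the mutants and 12 were lowest. The summed level of the list was 2227 to 2277 TPM in the wild-type libraries and 2881 to 3151 TPM in the mutants, highest in replicate 2, and no gene of the list that has a feature stood at 0 in every library. bcd, the anterior determinant, stood at 0.424, 0.580 and 0.546 TPM in wild type and 11.5, 16.1 and 11.5 TPM in spo (log2 difference 3.19, SE 0.13, limma adjusted p = 3.74e-06). twe, the maternal Cdc25 phosphatase, stood at 0.669, 0.812 and 0.887 TPM and 27.1, 35.6 and 27.6 TPM (log2 difference 4.11, SE 0.11, limma adjusted p = 9.93e-07). smg, which encodes an RNA-binding repressor that clears maternal messages, stood at 31.3, 31.6 and 31.0 TPM and 146, 183 and 148 TPM (log2 difference 2.30, SE 0.08, limma adjusted p = 2.28e-06). All 3 were higher in 3 of 3 mutant libraries and highest in replicate 2, as were wisp, swa, BigH1 and tor, which were also called. bcd, twe, swa and tor lay below 1 TPM in every wild-type library, so they passed the filter only through spo. Their p-values and their part in the count of 35 are descriptions. Apart from bcd, the genes named from this list were picked for having its smallest p, and they are not typical of it. The median log2 difference of the tested genes of the list was 0.46, and 8 were called in neither direction. The part of such transcripts in the levels of the 121 genes was not tested.

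The other gene sets, also listed with earlier results known, were more mixed. Without spo replicate 2 they held 84 higher and 85 lower genes in place of 81 and 82. With no filter they held 109 and 90. In some sets few features passed the filter, with 26 of 112 for cuticle, 9 of 30 for testis and 3 of 22 for immune peptides. Over all tested features, 33.9% were higher and 27.9% lower, and 45% were highest and 36.2% lowest in spo replicate 2. Of the structural cuticle genes, 14 of 26 tested were higher and 7 lower, and 11 were lowest in spo replicate 2 against 9 highest. Ccp84Ag, a cuticle protein gene, stood at 0.907, 0.536 and 0.775 TPM in wild type and 7.81, 5.71 and 8.96 TPM in spo, and Cpr76Bc, another, at 1.67, 1.26 and 1.40 TPM and 9.37, 8.64 and 10.3 TPM. Both were higher in 3 of 3 mutant libraries and lowest in replicate 2 among them (limma adjusted p = 2.5e-05 and 4.29e-06). Ccp84Ag lay below 1 TPM in every wild-type library and passed the filter only through spo. obst-A and TwdlE were also higher but highest in replicate 2, averaging 73.0 ± 1.46 and 6.64 ± 0.531 TPM over the wild-type libraries and 149 ± 6.62 and 18.3 ± 0.363 TPM over the mutants (SD, n = 3). Cpr11A was lower in spo, at 13.9 ± 1.12 against 36.0 ± 0.463 TPM, as was obst-B, at 12.7 ± 1.24 against 35.5 ± 1.12 TPM, and these 2 were highest in replicate 2 among the mutants (limma adjusted p = 4.12e-06 and 5.64e-06). Of the cytochrome P450, glutathione transferase and UDP-glycosyltransferase genes, 35 of 83 were higher and 26 lower, with 41 lowest and 28 highest in spo replicate 2. Cyp49a1, a cytochrome P450 gene, stood at 1.503, 1.54 and 1.46 TPM and 10.1, 8.58 and 10.4 TPM (log2 difference 2.09, SE 0.08, limma adjusted p = 3.15e-06). Cyp6v1 and GstZ1 were also higher but highest in replicate 2, at 7.48 ± 0.815 and 9.26 ± 0.515 TPM over the mutants against 1.22 ± 0.0265 and 2.89 ± 0.177 TPM in wild type. Cyp304a1 fell from 5.78 ± 0.322 to 0.845 ± 0.101 TPM (limma adjusted p = 3.65e-06), and Ugt58Fa and Ugt were also called lower. Cyp304a1 lay below 1 TPM in every spo library and passed the filter only through wild type. Among early zygotic genes, 8 of 17 were higher and 1 lower, with 9 lowest and 4 highest in spo replicate 2. slam, which acts in cellularization, was called higher and was highest in replicate 2, while sisA, an X chromosome counting gene, was called higher and was lowest there. slam lay below 1 TPM in every wild-type library and passed the filter only through spo.

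In the other sets, higher and lower genes numbered 3 and 2 of 9 tested for testis, 5 and 4 of 11 for midgut digestion and 2 and 5 of 10 among fat body genes. They numbered 3 and 4 of 11 for blood cells and 5 and 4 of 16 for DNA damage and cell death. The shares over all tested features were 33.9% and 27.9%. Near these were testis, at 33.3% and 22.2%, and DNA damage and cell death, at 31.25% and 25.0%. Of the immune peptide genes, 2 of 3 tested were higher, and of the eggshell and yolk genes 2 of 3 were lower. The summed level of the testis list was 145 to 148 TPM in wild type and 155 to 165 TPM in spo, and that of the eggshell and yolk list 6.84 to 7.71 and 5.44 to 5.73 TPM. Genes of the hormone cascade and of neurons were mostly lower. Of the ecdysone response genes, 3 of 25 were higher and 18 lower, and 21 were highest in spo replicate 2 (45% over all tested features). ftz-f1, an orphan nuclear receptor of the cascade, was 1 of the 3, at 0.973, 0.952 and 0.919 TPM in wild type and 19.2, 21.5 and 19.2 TPM in spo (log2 difference 3.43, SE 0.06, limma adjusted p = 7.02e-07). It lay below 1 TPM in every wild-type library and passed the filter only through spo. EcR was another of the 3. In the direction of most of the set, ImpE1 fell from 62.9 ± 0.392 to 27.0 ± 3.35 TPM (SD, n = 3, limma adjusted p = 1.9e-05). ImpL3, ImpE2 and Eip71CD were also called lower. Of the neuron genes, 1 of 14 was higher and 10 lower, and 13 were highest in spo replicate 2. fne, an RNA-binding protein gene of neurons, stood at 98.4, 96.4 and 91.2 TPM in wild type and 26.1, 44.2 and 26.1 TPM in spo (log2 difference -1.58, SE 0.19, limma adjusted p = 0.0003), so replicate 2 was the mutant library nearest to wild type.

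**Figure D4:**
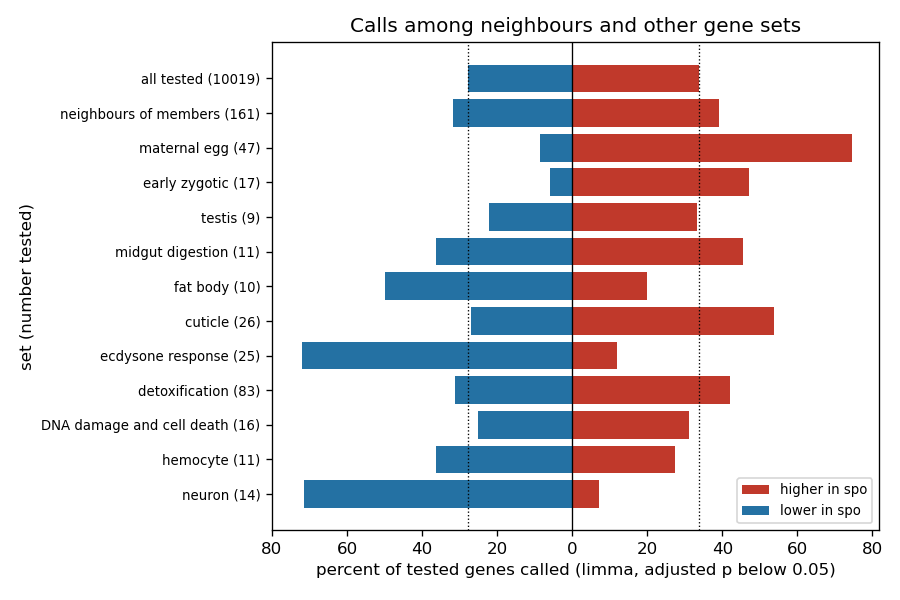
Percent of tested genes called higher (red, right) or lower (blue, left) in spo by limma with an adjusted p below 0.05, for all tested features, the neighbours of the 121 genes and the gene sets with at least 9 tested genes. Dotted lines mark the shares over all tested features, 33.9% and 27.9%.

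In the genome, the 121 genes were spread over all major arms, with a larger share on chromosome 3 than the background had. Chromosome 3, which also carries spo, held 68 of the 121 genes (56.2%) and 44.6% of the 7734 protein-coding genes with at least 5 TPM in either genotype. For the 114 CG genes lower in spo the share was 54.4%. By arm, 3L held 26.4% of the 121 genes (background 19.7%) and 3R held 29.8% (background 25.0%). For the 114 CG genes lower in spo these shares were 19.3% and 35.1%, so the 2 sets differed by arm. The X chromosome held 17 genes (14.0%, background 16.3%), 2L held 19 (15.7%, background 17.7%) and 2R held 16 (13.2%, background 20.5%). These shares were not tested. On X, 14 of the 17 genes were highest in spo replicate 2 and 1, CG32564, was lowest. On 3R, 16 of 36 were highest and 17 lowest, and on 3L 18 of 32 were highest and 11 lowest. Over all tested features of X, 47.6% were highest in replicate 2 and 34.0% lowest.

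Members close to each other formed 4 pairs, counting members with no other gene between them or with at most 10 kb between them. CG31673 and CG31674 lie on the plus strand of 2L, at 20829609 to 20831161 and 20831262 to 20832859, with 100 bases between them. CG31673 stood at 4.55, 4.26 and 4.17 TPM in wild type and 12.4, 14.1 and 11.9 TPM in spo, highest in replicate 2, and CG31674 at 3.84, 3.69 and 3.90 TPM and 8.95, 7.48 and 8.92 TPM, lowest in replicate 2. These neighbours thus differed in the order of the mutant libraries. CG33339 and CG33340 overlap by 5 bases on the plus strand of 3R, at 24361847 to 24363142 and 24363138 to 24364289, and reads in the shared bases cannot be told apart. They stood at 22.4, 15.3 and 20.1 TPM and 19.0, 14.7 and 19.9 TPM in spo and at 7.66, 9.08 and 8.72 TPM and 4.98, 6.42 and 5.99 TPM in wild type, both lowest in spo replicate 2. CG17784, whose span overlaps CG33340, was lower in spo, from 2.90, 3.001 and 2.51 TPM in wild type to 0.0645, 0.528 and 0.133 TPM in spo (log2 difference -1.63, limma adjusted p = 8.21e-05). CG11263 lies 1517 bases from Cul6 on 3L, at 13006817 to 13007881, and Cul6 stood at 3.13, 2.94 and 3.11 TPM and 5.90, 7.24 and 5.72 TPM, so both were highest in spo replicate 2. CG7737 and CG13217 on 2R, 9456 bases apart with 3 other genes between, stood at 10.8, 11.1 and 10.8 TPM and 9.70, 9.20 and 8.58 TPM in spo, and at 3.55, 2.83 and 3.51 TPM and 3.04, 3.12 and 3.19 TPM in wild type.

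Genes next to the 121 gave shares near those of all genes. Of 233 nearest genes on either side that are no members and overlap none, 161 were tested, and 63 of them (39.1%) were higher and 51 (31.7%) lower in spo (limma), against 33.9% and 27.9% over all tested features, and 66 and 53 without spo replicate 2. Their median log2 difference was 0.04, and that of all tested features 0.02. Single neighbours stood far apart between the genotypes in either direction, and those given here were chosen after their values were seen. ntc, 12271 bases from CG32266, stood at 3.06, 2.81 and 2.56 TPM in wild type and 11.9, 14.4 and 10.5 TPM in spo (limma adjusted p = 1.65e-05). Cht5, a chitinase gene 762 bases from CG9297, stood at 38.4, 38.3 and 39.7 TPM and 4.92, 11.8 and 5.05 TPM and so was lower (limma adjusted p = 0.000272). CG9297 itself stood at 3.15, 3.20 and 3.26 TPM and 16.5, 13.9 and 17.4 TPM. CG34224, 485 bases from CG13217, fell from 192, 180.5 and 188 TPM to 33.1, 61.8 and 33.2 TPM (limma adjusted p = 0.000149).

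The spans of 45 of the 121 genes overlap another feature. Of 53 overlapping features that are no members, 40 were tested, and 24 (60.0%) were higher and 7 (17.5%) lower (limma), against 33.9% and 27.9% over all tested features. The sources used here do not give the strand setting of the counting, so the part of shared reads in those calls was not tested. dah, which encodes a protein of early furrow membranes, overlaps CG9114. It stood at 5.04, 5.21 and 5.78 TPM in wild type and 30.7, 35.8 and 29.8 TPM in spo, against 1.98, 1.67 and 1.65 TPM and 5.83, 7.19 and 6.60 TPM for CG9114. nau, the fly MyoD gene, overlaps CG10300 and stood at 11.6, 11.6 and 10.9 TPM and 16.1, 16.4 and 15.9 TPM, against 3.06, 2.94 and 3.06 TPM and 15.6, 13.3 and 15.6 TPM for CG10300. No member shared equal values with another feature in every library.

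The encoded proteins were shorter than the background. The median of the longest annotated protein was 346 residues, against 469 over the 7734 background genes and 405 over the 3350 of these with a CG number. The median exon length was 1543 bases, against 2212 over the background and 1851.5 over its CG-numbered genes. Proteins under 100 residues were encoded by 9 of the 121 (7.44%, background 3.19%, background with a CG number 4.78%), and by 7 of the 113 CG genes lower in spo that encode a protein (6.19%). Besides CG13067, CG15353 and CG13465 these were CG17127, CG32266 and CG42587, lowest in spo replicate 2, CG31517 and CG42445, highest there, and CG15213, which lay between. CG17127 stood at 3.14, 3.05 and 3.69 TPM in wild type and 16.5, 13.1 and 16.6 TPM in spo, and CG32266 at 6.58, 8.31 and 5.51 TPM and 29.0, 23.2 and 27.8 TPM. Among genes highest in spo replicate 2 the median protein length was 398 residues and 2 of 63 lay under 100, and among those lowest there it was 327 residues and 6 of 47. At the other end, CG14692 encodes 2851 residues and averaged 4.09 ± 0.180 TPM over the wild-type libraries and 11.0 ± 1.25 TPM over the mutants (SD, n = 3). Genes with 1 exon numbered 15 (12.4%, background 8.08%, background with a CG number 9.67%).

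**Figure D5:**
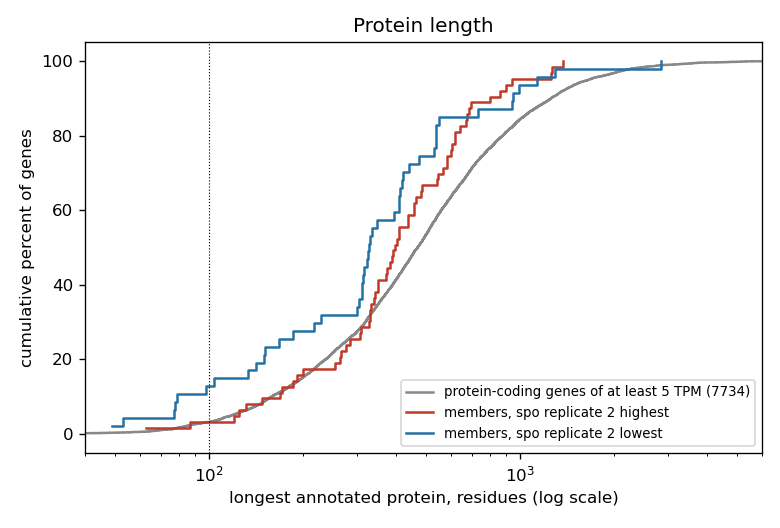
Cumulative percent of genes by the length of the longest annotated protein in residues (log scale), for 7734 background genes (grey), the 63 members highest in spo replicate 2 (red) and the 47 lowest there (blue). The dotted line marks 100 residues, below which lay 2 of the 63 and 6 of the 47.

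The 67 genes that have no name and that no ranking above picked out had wild-type means from 0.943 to 21.5 TPM (median 4.23) and spo means from 5.18 to 45.8 TPM (median 13.5). Their ratios ran from 2.05 to 6.86 with a median of 2.77, and 33 were highest, 9 between and 25 lowest in spo replicate 2. The edges of the rule fell within a continuous range. Just inside the ratio of 2 stood CG14749 (Gle1), at a ratio of 2.01, CG34445, at 2.01, CG14894 (Ttc1), at 2.02, CG18769 (MCU), at 2.02, and CG42296, at 2.05. Just outside stood CG31414, at 1.99, CG7992, at 1.99, CG17361, at 1.99, CG8223, at 1.98, and CG15536, at 1.98. At the level of 5 TPM, CG11413 was just inside with a spo mean of 5.10 TPM, and CG2678, with a spo mean of 4.795 TPM and a ratio of 5.41, was just outside.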

How the data were processed

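Polyadenylated RNA was sequenced in 3 wild-type and 3 spo libraries. Per the file headers, the authors deposited 1 table of TPM for 15135 features and 1 edgeR table with a log2 fold change, a log2 mean abundance, a test score and a p-value per gene. The tools in the submitters' processing notes are STAR 2.5.3a, Subread with featureCounts, edgeR and FastQC 0.11.2, and the build is dm6. TPM is relative to the sum of each library. limma 3.58.1 with an intensity trend (R 4.3.3) compared the genotypes on log2(TPM + 1) over the 10019 features that reached 1 TPM in 3 or more libraries, and p-values were adjusted by Benjamini-Hochberg (threshold 0.05). All 121 members passed this filter, their spo level helping them to pass. Any gene below 1 TPM in every library of 1 genotype passed only through the other genotype, and its call is a description. Reads were rebuilt as TPM times exon length over 1 step per library. They came out whole within 0.01 for 14194 of 14969 features with a position (94.8%) and for 119 members. Positions, names and lengths are those of Ensembl (BDGP6, dm6 coordinates). The members and gene lists were chosen with earlier results of these data known. Of 306 listed names, 35 had no matching feature. Members given with values are the 12 of highest ratio of mean (TPM + 1), the 12 of highest spo mean, the pairs, those at the threshold and those with the 5 widest gaps of spo replicate 2. Named or very short genes, those beside overlapping or neighbouring genes and CG13033 were added after their values were seen, as were overlapping and neighbouring genes. The fitting step was tested on simulated data in which no library departed from its group as spo replicate 2 did, so that test does not cover such a departure.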

Additional observations from a re-analysis of the deposited data

How the results depend on the processing

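The count of 121 genes depended on the thresholds. A spo mean of at least 1 TPM gave 232 genes, a ratio of at least 1.5 gave 268 and a ratio of at least 3 gave 53, by construction. A spo mean of at least 10 TPM gave 86, the ratio of mean (TPM + 1) 103, and median-of-ratios scaling 117, all among the 121. Leaving out 1 library gave 120 to 123 genes, with 113 to 120 of the 121 among them. The fits without 1 library asked for 1 TPM in fewer libraries than the main fit, so the tested features also differed. Without 1 library, features called numbered 3026 to 3533 higher and 2422 to 2972 lower, egg transcripts 34 to 36 higher and 3 to 5 lower, neighbours 57 to 66 higher and 44 to 53 lower, and the other lists 75 to 84 higher and 76 to 85 lower. With no filter, 3549 features were called higher and 3011 lower, egg transcripts 40 and 4, neighbours 71 and 53 and the other lists 109 and 90. With the replicate number as a replicate block, 3341 features were called higher and 2745 lower, egg transcripts 35 and 4, neighbours 63 and 48. Libraries of equal number deviated from their group means with correlations of -0.0275, 0.0450 and 0.129, not all above 0.1, and were treated as unpaired. With median-of-ratios scaling, 3121 features were called higher and 3075 lower, and 63 and 47 members were again highest and lowest in spo replicate 2. Chosen after the data were seen, a gap of at least 0.1 left 57 and 44 of these, and pairs within 5 or 20 kb held 6 or 12 members in place of 8. Depth limits the genes near silence in wild type, which rest on as few as 10 reads. The searches for protein relatives and promoter motifs were not run.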
